A study of Homo sapiens with 4 samples.

Results

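The response of TR9_MeTA14 cells to tetracycline was measured on 2 of the 4 arrays of the series, which were chosen by their labels and not by any measured value: 1 array of cells without tetracycline (-Tet) and 1 array of cells treated with tetracycline for 4 days (+Tet). TR9_MeTA14 derives from LNCaP, a human prostate cancer line that responds to androgen. The cells of both arrays carried the same 2 constructs, pcDNA6/TR for the Tet repressor and pcDNA4/TO/NFκB (AD)-MBD, in which tetracycline releases expression of a FLAG-tagged fusion of an NF-κB activation domain with a methyl-CpG binding domain, and both were grown in RPMI1640 with fetal bovine serum. The other 2 arrays came from TR15_MeTA5, a line made in the same way from another Tet repressor line, with and without the same treatment, and they are used here only as values beside those of TR9_MeTA14. The tetracycline dose of the array experiment and whether either line was grown from a single cell were not given in the sources used here. Cells that lack the fusion construct and were given tetracycline were not among the 4 arrays, so that an effect of tetracycline itself and an effect of the fusion protein cannot be told apart.

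The fusion was designed to bind methylated CpG sites, where a methyl-CpG binding domain docks, and to activate transcription there through the attached activation domain, which is why the array experiment was read for genes that go up. The same arrays also hold the genes that go down, and these receive most of the space below. LNCaP cells are of the luminal type of the prostate, in which androgens drive a set of secretory genes such as the kallikreins KLK2 and KLK3. In dividing cells of any type, E2F factors drive the genes of DNA replication, and a later wave of genes builds the spindle and the kinetochore. ATF4 is a transcription factor that is translated when amino acids are short or the endoplasmic reticulum is stressed, and it raises amino acid transporters, amino acid synthesis enzymes and aminoacyl-tRNA synthetases.

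Each array held 34127 non-control probes, of which 21918 were well above background in TR9_MeTA14 -Tet and 24217 in TR9_MeTA14 +Tet by the scanner software's own flag. No spot was saturated. Signals are given as deposited, in intensity units. Every fold change was calculated after division by the 75th percentile of the array, which lay at a signal of 617 in -Tet and of 777 in +Tet, and therefore differs from the plain ratio of the 2 signals by this factor. Each condition was 1 array, without a replicate or a test, and higher or lower in the following means at least 2-fold on the scaled signals. Replicate spots of the same probe within each array, combined over the 2 arrays, gave an SD of 0.0838 for a log2 ratio. This leaves out errors of labeling and hybridization that the spots of an array share. Log2 fold changes of different probes of a gene, measured on both arrays, had a median SD of 0.173. The spread between cultures is unknown. All 12 markers of LNCaP-type luminal cells were well above background on both arrays. Their summed signal went from 352771 in -Tet to 155309 in +Tet, with KLK3 at 144067 and 47017 and KRT8 at 8536 and 12714. Of 8 markers of basal cells and other prostate lines, KRT5, KRT14 and TP63 passed the flag on neither array and CAV1 passed it in +Tet alone. The summed signal of the 8 went from 724 to 4661, with VIM at 190 and 2372 and ITGB4 at 280 and 1880. All 6 leukocyte markers passed the flag on both arrays at low signals, and their sum went from 280 to 1560, with CD14 at 69.4 and 840. Of 8 fibroblast markers, COL1A1 was well above background on both arrays and THY1 in +Tet alone, and the remaining 6 were on neither. The part of these markers in the changes was not tested.

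Genes were lower and higher with tetracycline in numbers whose balance depended on the scaling. Represented by the brightest probe of each gene, 13542 of 19483 genes were measured on both arrays, and of these 2037 (15.0%) were lower and 1922 (14.2%) were higher. With the genes that have a bound of at least 2-fold included, 2274 were lower and 2533 higher, beside 2445 and 2390 after quantile normalization and 1862 and 2851 after scaling on spike-in probes. The rises reached much further than the falls, since 330 genes rose by at least 10-fold and 56 fell by as much. A fall can be measured only down to the lowest signal that passed the flag in +Tet, 13.9. The median -Tet signal of the genes measured on both arrays was 586. The part of this limit in the difference was not tested. The median log2 fold change of all genes measured on both arrays was -0.13. Another 602 genes (3.09% of 19483) were switched on, that is, well above background in +Tet and by no probe in -Tet, with a bound of at least 2-fold, and 235 (1.21%) were switched off by the reverse rule. They are counted apart from the genes measured on both arrays, and 980 further genes were well above background on 1 array without meeting the rule. The share of lower genes did not follow brightness, as it lay between 13.9% and 16.7% in 5 equal groups of the genes ordered by signal. Agreement of probes was read from genes with several probes measured on both arrays, so that probes with a bound were left out. At least 1 such probe was past 2-fold in 1160 genes, and all moved the same way in 1048 of them (90.3%). Of all 3177 genes with several such probes, 80.7% had all of them moving the same way.

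**Figure D1:**
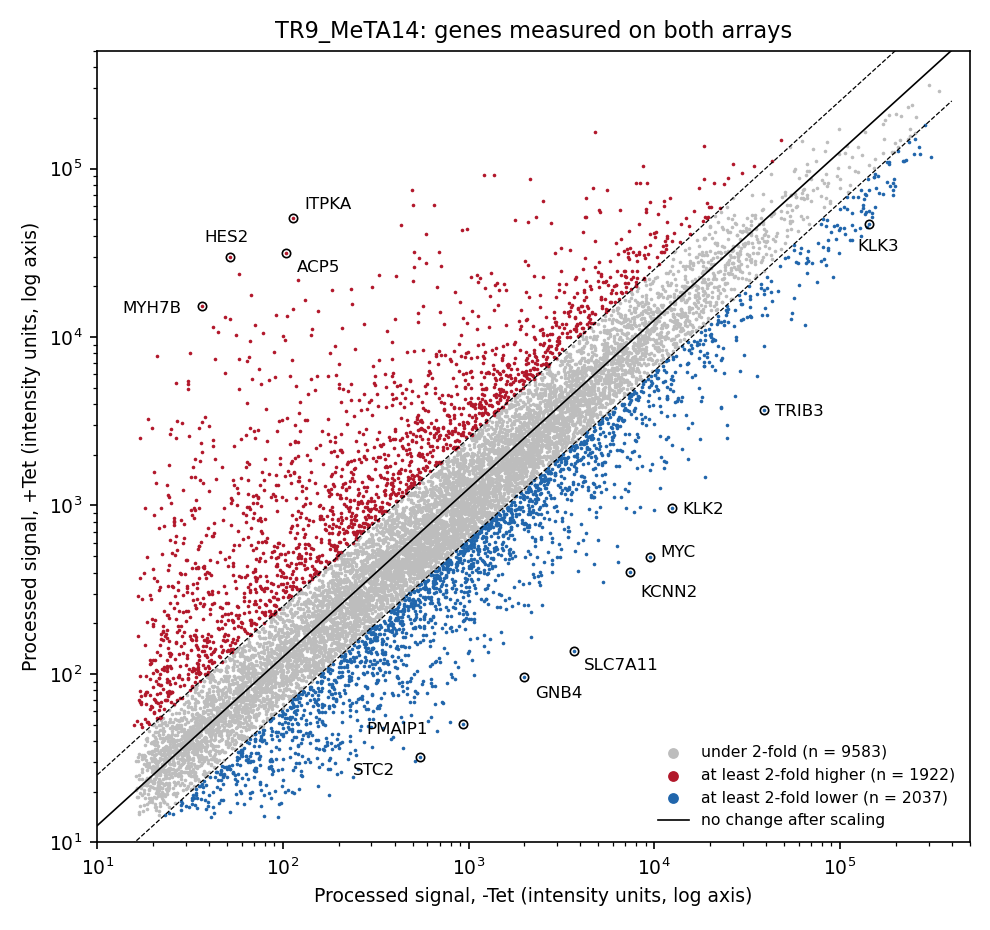
Processed signal of 13542 genes in TR9_MeTA14 -Tet (x axis) against TR9_MeTA14 +Tet (y axis), both in intensity units on log axes, with 1 point per gene by its brightest probe. The solid line marks no change after scaling and the dashed lines a 2-fold change. Blue points (2037 lower) reach down to SLC7A11 and GNB4, while red points (1922 higher) spread further from the line, up to HES2, ITPKA and MYH7B.

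The largest fall measured on both arrays was that of SLC7A11, the cystine transporter that supplies glutathione synthesis. Its signal was 3685 in -Tet and 137 in +Tet, a 33.8-fold decrease after scaling. GNB4, a G protein beta subunit, followed with signals of 1996 and 95.9, a 26.2-fold decrease. MYC, the growth-promoting transcription factor, gave 9516 and 496, a 24.2-fold decrease. All 3 genes thus went from a level above the array's 75th percentile to a level below it. In TR15_MeTA5 the same probes gave log2 fold changes of -1.34 for SLC7A11, -1.17 for GNB4 and -0.30 for MYC, beside -5.08, -4.71 and -4.59 in TR9_MeTA14.

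The next falls were in genes of unlike function. KCNN2, a calcium-activated potassium channel, went from 7439 to 404 (23.2-fold), and PMAIP1, which encodes the BH3-only protein NOXA, from 929 to 50.6 (23.1-fold). STC2, a secreted glycoprotein that ATF4 induces, went from 547 to 32.3 (21.3-fold). CDCA7, a partner of the chromatin remodeler HELLS, went from 512 to 30.6 (21.0-fold) by its brightest probe, while its other probe gave a log2 fold change of -0.96. The scavenger receptor gene COLEC12, the secreted protease gene ADAMTS1 and IL1RN, which encodes the interleukin-1 receptor antagonist, completed the 10 largest falls with decreases of 19.3-, 19.0- and 18.6-fold. ADAMTS1 gave nearly the same value by both of its probes (-4.25 and -4.07 on the log2 scale), whereas the dimmer IL1RN probe gave -0.65 beside -4.22. The log2 fold changes of these 7 genes in TR15_MeTA5 lay between -0.11 (COLEC12) and -1.14 (STC2).

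Of the 235 genes that were switched off, the largest bounds were those of HEG1, FERMT1, FOXN4, STARD4 and LRRC17. HEG1, a transmembrane protein of endothelial and epithelial junctions, had a signal of 369 in -Tet and was not well above background in +Tet, which makes it at least 33.4-fold lower. FERMT1, the epithelial integrin activator kindlin-1, was at least 27.1-fold lower from a signal of 300. STARD4, a sterol carrier, was at least 19.8-fold lower from 220, and in TR15_MeTA5 its log2 fold change was -1.89. FOXN4 and LRRC17 were well above background in TR9_MeTA14 -Tet alone among the 4 arrays, with signals of 252 and 214.

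**Figure D2:**
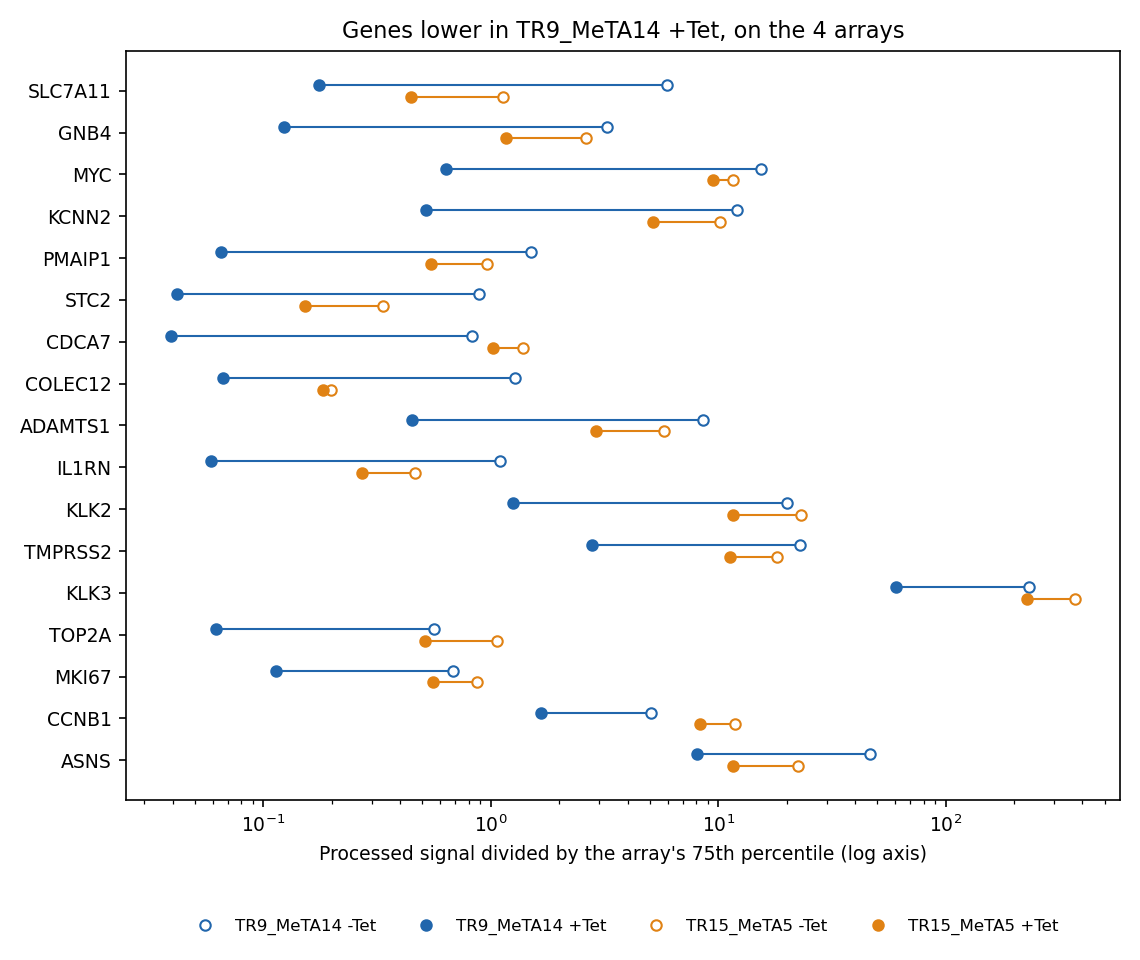
Processed signal divided by the 75th percentile of the array (log axis) for 17 genes on the 4 arrays, with open circles for -Tet and filled circles for +Tet, blue for TR9_MeTA14 and orange for TR15_MeTA5. Each circle is 1 array. All 17 genes were picked among those lower in TR9_MeTA14, the largest falls included. That the blue lines are longer than the orange ones for every gene shown follows in part from this choice. MYC, for example, had log2 fold changes of -4.59 and -0.30.

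Genes of cell division were lower as a group. Of 57 mitosis and spindle genes measured on both arrays, 54 were lower and 1 was higher, beside 15.0% and 14.2% of all genes, and the median log2 fold change was -2.54. The 3 remaining members with a probe, ANLN, KIF18A and NCAPH, were switched off, beside 1.21% of all genes with a probe. The kinetochore gene NUF2 went from 722 to 67.8 (log2 fold change -3.74), the spindle gene ASPM from 1535 to 152 (-3.67) and the kinesin KIF14 from 491 to 57.0 (-3.44). The proliferation marker MKI67 went from 420 to 88.1 (-2.58), and its other 2 probes were lower as well. TOP2A, which untangles chromosomes before they separate, went from 348 to 47.9 (-3.19). CDK1, the kinase that starts mitosis, went from 4110 to 627 (-3.04), while its cyclin partner CCNB1 went from 3120 to 1292 (-1.60). INCENP, a scaffold of the chromosomal passenger complex, was the single member that was higher, from 297 to 1114 (1.58), although AURKB, the kinase of that complex, went from 274 to 39.6 (-3.12). In RNA from whole cultures, fewer dividing cells and less of each RNA per cell cannot be told apart.

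Genes of DNA replication and S phase were lower to a smaller extent. Of 61 measured on both arrays, 35 were lower and 1, POLE, was higher, beside 15.0% and 14.2% of all genes, with a median of -1.21. MCM10, BRIP1, E2F8, CLSPN and CDC6 were switched off, beside 1.21% of all genes with a probe. The E2F genes E2F2 (1016 and 162 in -Tet and +Tet) and E2F1 (443 and 79.4) had log2 fold changes of -2.99 and -2.81. CDC45, a part of the replicative helicase, went from 2230 to 391 (-2.84) and TYMS, which makes thymidylate, from 6085 to 1128 (-2.76). The MCM helicase subunits were closer to the cut-off, with -1.67 for MCM7, -1.43 for MCM3 and -1.21 for MCM4, whereas MCM2 (-0.71), MCM5 (-0.91) and MCM6 (-0.89) did not reach it. PCNA, the sliding clamp, gave -1.26 by both of its probes. Among 10 CDK inhibitors and members of the retinoblastoma family, 4 were lower, among them CDKN3, a phosphatase that acts on CDKs (-3.10), CDKN2C (-1.99) and RBL2 (-1.82), and 1 was higher, CDKN1C, which encodes the inhibitor p57. CDKN1C went from 510 to 25870, with a log2 fold change of 5.33, and rose in TR15_MeTA5 as well (4.00).

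Genes of the ATF4 and amino acid stress response were also lower. Of 42 measured on both arrays, 33 were lower and 1 was higher, beside 15.0% and 14.2% of all genes, with a median of -1.94. SLC1A4, a neutral amino acid transporter, was switched off. ATF4 itself went from 149143 to 51221 (log2 fold change -1.87), and the stress factors ATF3 and DDIT3 from 10012 to 940 (-3.74) and from 1507 to 394 (-2.27), respectively. A dim one of the 4 ATF3 probes gave 0.11. TRIB3, the pseudokinase that ATF4 induces, went from 39129 to 3705 (-3.73).

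Enzymes of the list were among the lower genes. PSAT1 and PHGDH, which make serine, went from 24588 to 2513 (-3.62) and from 27179 to 4446 (-2.94). MTHFD2, of mitochondrial folate metabolism, went from 4746 to 448 (-3.74), ASNS, asparagine synthetase, from 28838 to 6286 (-2.53), and CHAC1, which degrades glutathione, from 15284 to 1878 (-3.36). The 1 member that was higher was SLC7A5, the large neutral amino acid transporter, which went from 175 to 3271 (3.89). SLC7A5 was also higher in TR15_MeTA5 (4.27), although its partner chain SLC3A2 was lower in TR9_MeTA14 (-1.40).

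The ATF4 genes stood high in TR9_MeTA14 before treatment. On the -Tet arrays, 40 of the 42 members measured on all 4 arrays had a higher scaled signal in TR9_MeTA14 than in TR15_MeTA5, and 19 of them (45.2%) were at least 2-fold higher, beside 4.33% of the 12690 genes measured on the 4 arrays. CHAC1, with signals of 15284 and 1878 in TR9_MeTA14, gave 1338 and 991 in TR15_MeTA5, where the 75th percentile lay at 367 and 542. The mitosis and spindle genes showed the opposite, as none of 57 had the higher scaled -Tet signal in TR9_MeTA14. Of all 12690 genes 5213 had the higher scaled -Tet signal in TR9_MeTA14. The TR9_MeTA14 -Tet array enters this comparison as well as the one with +Tet, and whether the level before treatment plays a part in the size of the falls was not tested.

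To show the element that ATF4 binds together with C/EBP factors, the RefSeq promoter windows (GRCh38.p14, from 250 bases before to 50 bases after each gene's start) were searched on both strands for the letters TGATGCAA, a motif chosen after the values had been seen. It occurred in 252 of 27305 windows (0.923%) and in 6 of the 36 windows found for members of the list (16.7%). These 6 are shown because they hold the element. Each is printed with the motif in capitals, on the strand of the gene, where it reads TTGCATCA when it lies on the opposite strand. They are CHAC1 at chr15:40953252-40953279 (+ strand), CARS1 at chr11:3057408-3057435 (- strand), AARS1 at chr16:70289676-70289703 (- strand), IARS1 at chr9:92293693-92293720 (- strand), NARS1 at chr18:57621805-57621832 (- strand) and TARS1 at chr5:33440957-33440984 (+ strand).
CHAC1: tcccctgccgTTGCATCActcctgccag
CARS1: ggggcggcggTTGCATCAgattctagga
AARS1: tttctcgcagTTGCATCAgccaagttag
IARS1: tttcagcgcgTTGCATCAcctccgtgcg
NARS1: ctacgctctcTGATGCAAcgccggaatc
TARS1: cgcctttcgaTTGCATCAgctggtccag
All but CHAC1 encode aminoacyl-tRNA synthetases, which load amino acids onto tRNA. The log2 fold changes in TR9_MeTA14 were -3.36 for CHAC1, -2.03 for IARS1, -1.57 for TARS1 and -1.20 for AARS1, while CARS1 (-0.44) and NARS1 (-0.38) did not reach 2-fold. A match describes the letters of the window and shows no binding, which was not measured.

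Most cytosolic ribosomal protein genes were lower, and few mitochondrial ones were. All 79 cytosolic ribosomal protein genes had a log2 fold change below 0, with a median of -1.35. Of these genes 62 were lower and none higher, beside 15.0% and 14.2% of all genes measured on both arrays. RPL7 went from 74816 to 21313 (-2.14), RPL5 from 99338 to 31610 (-1.98), and RPS15, with the smallest shift, from 212869 to 205394 (-0.38). These genes are among the brightest on the array, and the result depends on how the bright end was scaled. After quantile normalization 25 of the 79 were lower, 73 were below 0 and the median was -0.61. Of 52 ribosome biogenesis genes, 20 were lower and 1 was higher (median -0.85), among them GNL3 (-2.23), DKC1 (-2.05), nucleophosmin NPM1 (-1.70) and nucleolin NCL (-1.62), while BOP1 was higher (1.37). By contrast, 4 of 75 mitochondrial ribosomal protein genes (median -0.28) and 6 of 76 oxidative phosphorylation subunit genes (median -0.38) were lower, with 1 higher in each list. These shares of lower genes, 5.33% and 7.89%, lay below the 15.0% of all genes. None of 40 proteasome subunit genes passed 2-fold in either direction.

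Androgen-responsive genes, which mark LNCaP cells, were lower as a group on the +Tet array. Of 45 androgen-responsive genes measured on both arrays, 27 were lower and none was higher (median -1.27), beside 15.0% and 14.2% of all genes. INPP4B and HERC3 were switched off, beside 1.21% of all genes with a probe. KLK2 went from 12394 to 972 (log2 fold change -4.00), and KLK3, which encodes prostate-specific antigen, from 144067 to 47017 (-1.95). The co-chaperone FKBP5 went from 1206 to 146 (-3.38), the transporter SLC45A3 from 24792 to 3020 (-3.37) and the protease TMPRSS2 from 14116 to 2175 (-3.03). The list also holds CENPN, a kinetochore gene (-3.16). Not every luminal gene was lower, as FOLH1, prostate-specific membrane antigen (34701 and 27201, -0.68), FOXA1 (12379 and 9577, -0.70) and KRT8 (8536 and 12714, 0.24) stayed within 2-fold.

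Among 17 prostate lineage factor genes, 8 (47.1%) were lower and 2 (11.8%) were higher (median -0.93), beside 15.0% and 14.2% of all genes. The lower ones included ZBTB16 (-2.29), SPDEF (-1.89) and HOXB13 (-1.65), all known as transcription factors of prostate epithelium or androgen targets, and the higher ones included KLF5 (1.79). Of 9 kallikrein genes measured on both arrays, 6 were lower and KLK8 was switched off. The median, -1.95, was the value of the bright gene KLK3. It was -1.39 after quantile normalization and -1.32 after normexp correction. Apart from KLK2 and KLK3 the lower genes were KLK15 (-3.07), KLK5 (-2.74), KLK4 (-2.40) and, just past 2-fold, KLKB1 (-1.01). KLKB1 is the plasma kallikrein gene, which lies outside the tissue kallikrein cluster.

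**Figure D3:**
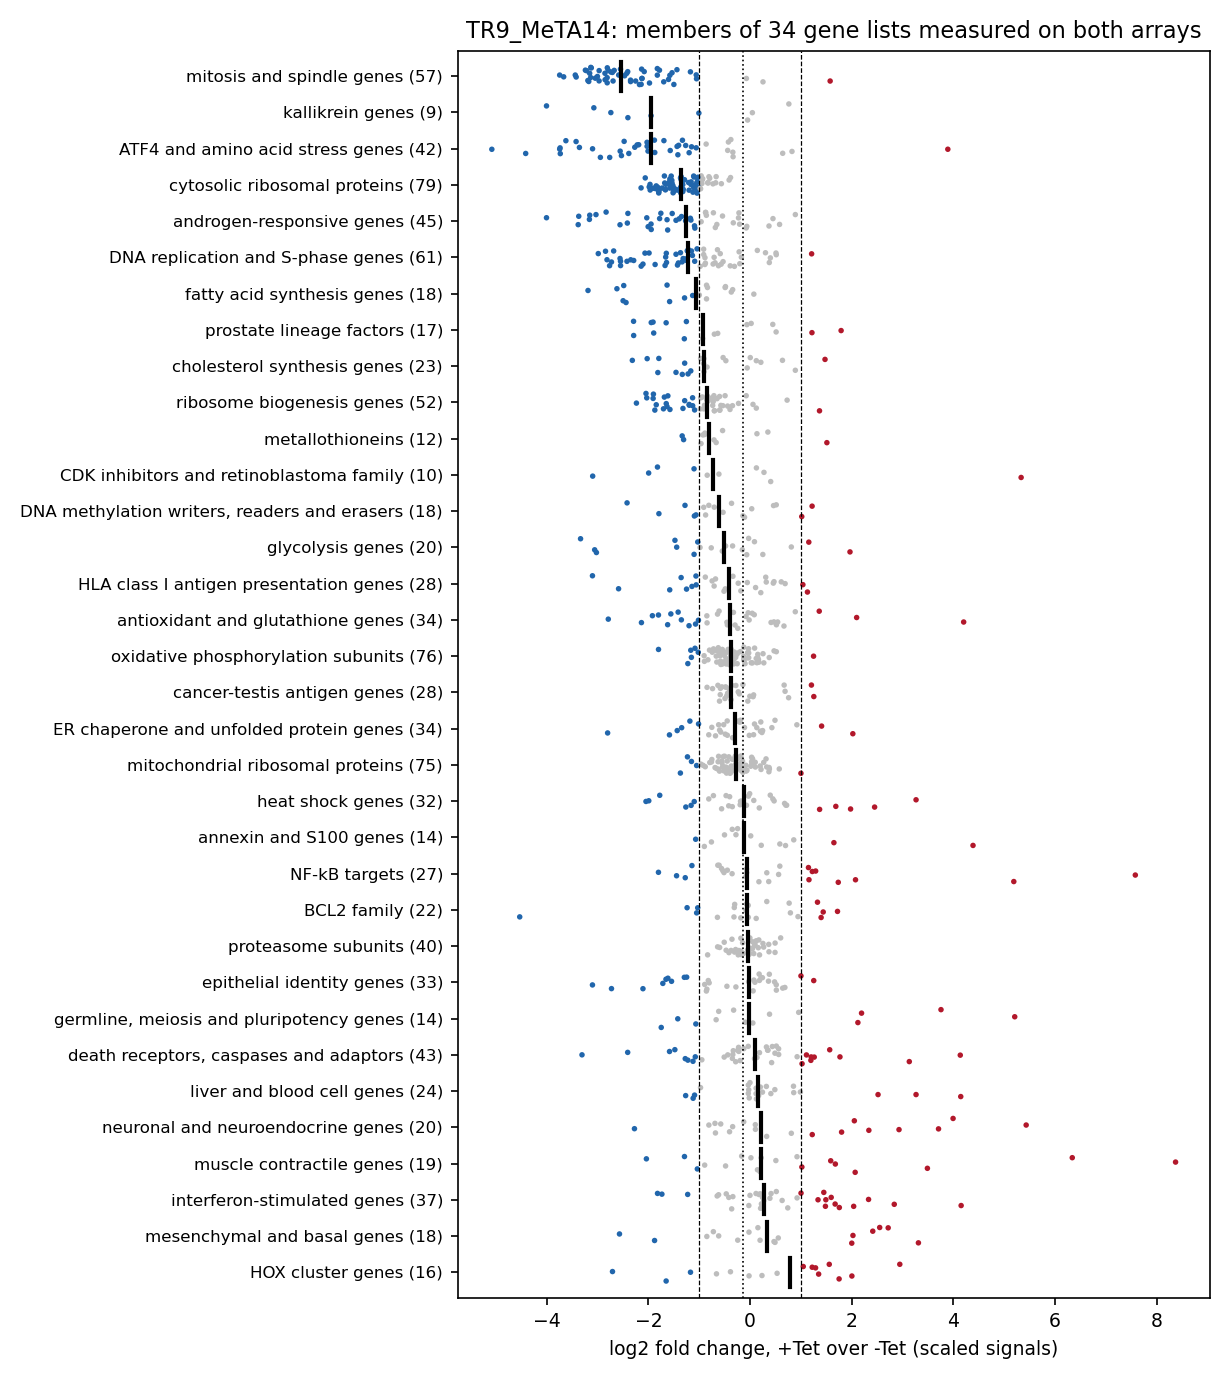
Log2 fold change (+Tet over -Tet, scaled signals) of each member of 34 gene lists measured on both TR9_MeTA14 arrays, with 1 point per gene, the number measured in brackets, a thick black bar at the median of each list, dashed lines at 2-fold and a dotted line at the median of all genes (-0.13). Blue points are lower and red points higher by at least 2-fold. The mitosis list lies almost whole beyond the left dashed line (54 of 57), and lists such as the muscle and NF-kB lists hold single genes far to the right (MYH7B at 8.37, IER3 at 7.58).

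Lipid and sugar metabolism showed shifts in part of their genes. The counts stand beside 15.0% lower and 14.2% higher of all genes measured on both arrays. Of 18 fatty acid synthesis genes, 9 were lower and none was higher (median -1.06), led by the desaturase FADS1 (7028 and 971, -3.19) and the elongases ELOVL5 (-2.62) and ELOVL6 (-2.50). Of 23 cholesterol synthesis genes, 9 (39.1%) were lower and 1, MVD, was higher (median -0.91). ACAT2 (-2.32), INSIG1 (-2.02) and SREBF2 (-1.81) were lowest, whereas HMGCS1 (-0.90) stayed within 2-fold. Of 20 glycolysis genes, 7 (35.0%) were lower and 2 (10.0%) were higher, and LDHB, PDK1 and HK2 fell the most (-3.33, -3.06 and -3.02). Of 34 antioxidant and glutathione genes measured on both arrays, 11 (32.4%) were lower, led by MGST1 (-2.79) and PRDX4 (-2.14). In the same list 3 (8.82%) were higher, among them GSTP1 (4.20). Another 3 of the 39 genes of that list with a probe were switched on, beside 3.09% of all genes with a probe.

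Other lists held falls and rises side by side. Of 34 ER chaperone genes, 6 (17.6%) were lower, led by ERO1A (-2.80), and 2 were higher, HSPA5 (1.41) and CRELD2 (2.02). Of 12 metallothionein genes 2 (16.7%) were lower, MT1A and MT1G, and 1 was higher, MT1F. Both shares of lower genes were close to the 15.0% of all genes. Of 18 genes that write, read or erase DNA methylation, 5 were lower, led by HELLS (273 and 64.3, -2.42), and 2 were higher, while TET1 and DNMT3L, outside the 18, were switched on. DNMT1, the maintenance methyltransferase, stayed within 2-fold (-0.53), and DNMT3B was lower (-1.10). The HLA list had 8 of 28 lower, with the peptide transporter TAP2 (-3.10) and the class II gene HLA-DMB (-2.59) lowest, and 2 higher, HLA-DQB1 and NLRC5, of which NLRC5 reversed when its 2 probes were averaged (-0.23 beside 1.13).

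The apoptosis genes went both ways, in shares near those of all genes (15.0% lower and 14.2% higher). In the BCL2 family 4 of 22 genes measured on both arrays were lower and 4 were higher (18.2% each), and BCL2 itself was switched off from a signal of 42.6. The lower ones included the BH3-only genes PMAIP1 (-4.53) and BBC3 (2376 and 1267, -1.24) and the effector BAX (2106 and 1280, -1.05), while the BH3-only genes BIK (1.72) and HRK (1.40) and the effector relative BOK (1.44) were higher. Only 2 of the 22 were lower with the percentile over spots, with spike-in scaling and after normexp correction. Of 43 death receptor, caspase and adaptor genes, 8 (18.6%) were lower, led by the ligand TNFSF15 (207 and 26.3, -3.31) and the dependence receptor UNC5A (-2.41), and 9 (20.9%) were higher, while PYCARD, outside the 43, was switched on. The death receptor TNFRSF10B was lower as well (9323 and 3914, -1.58), while TNFRSF25 was higher (4.13).

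HOX, interferon-stimulated and other-tissue genes were mixed, and their counts stand beside 14.2% higher and 15.0% lower of all genes measured on both arrays. Genes switched on or off are counted among members with a probe, beside 3.09% and 1.21% of all genes with a probe. Members with a probe numbered 39 for HOX, 50 for interferon-stimulated, 48 for muscle and 58 for neuronal genes. They numbered 43 for mesenchymal and basal, 56 for germline, 43 for liver and blood cell and 52 for cancer-testis antigen genes. Of 16 HOX genes measured on both arrays, 8 were higher and 3 were lower, among them HOXB9 (-2.71), with a median of 0.79, and another 5 were switched on. Of 37 interferon-stimulated genes measured on both arrays, 12 (32.4%) were higher, led by IRF7 (2298 and 51423, 4.15), ISG15 (2.84) and IFIT1 (2.33), and 3 were lower (median 0.27), while another 2 were switched off. Muscle contractile genes counted 7 higher (36.8%) and 3 lower of 19 with another 6 switched on, neuronal genes 8 higher (40.0%) and 1 lower of 20 with another 6 switched on, and mesenchymal and basal genes 6 higher (33.3%) and 2 lower of 18, with FN1 switched off besides. Germline genes counted 4 higher (28.6%) and 3 lower (21.4%) of 14 with another 6 switched on. Liver and blood cell genes, with 3 higher and 3 lower of 24 (12.5% each), lay near the shares of all genes, and cancer-testis antigen genes counted 2 higher (7.14%) and none lower of 28, with another 1 switched on in each list. The muscle, germline, liver and blood cell and cancer-testis lists also had 1 gene each that was switched off.

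In the remaining lists the medians stayed near that of all genes. Their counts stand beside 14.2% higher and 15.0% lower of all genes measured on both arrays. Genes switched on are counted among members with a probe, beside 3.09% of all genes with a probe. Members with a probe numbered 47 for NF-kB targets, 39 for heat shock genes and 30 for annexin and S100 genes. Of 27 NF-kB targets measured on both arrays, 8 (29.6%) were higher and 4 (14.8%) were lower. IER3 (44.7 and 10751, 7.58), TNFAIP2 (5.19) and RELB (2.07) stood at the top and SOD2 (-1.80) at the bottom. ICAM1, outside the 27, was switched on. Heat shock genes had 5 higher (15.6%) and 6 lower (18.8%) of 32, with another 4 switched on. Annexin and S100 genes had 2 higher (14.3%) and 1 lower (7.14%) of 14, with another 5 switched on. Epithelial identity genes had 2 higher (6.06%) and 9 lower (27.3%) of 33, with EPCAM (11335 and 1664, -3.10), LAD1 (-2.73) and MAL2 (-2.11) lowest. The medians of the heat shock, NF-kB, annexin, BCL2, proteasome, germline and epithelial lists lay between -0.12 and -0.02, and each of them changed sign under at least 1 other scaling.

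The 10 largest rises measured on both arrays are given for the scale of the changes. HES2, a repressor of the Hairy/Enhancer of Split family, went from 51.8 to 29832, a 458-fold increase. ITPKA, an inositol phosphate kinase, went from 114 to 51105 (356-fold), and PRAMEF5, of the PRAME family that is expressed in testis, from 58.1 to 23749 (325-fold). The increases of MYH7B, TRIM43, ACP5, MMP23B, CHADL, NEU4 and EFHD1 lay between 331- and 201-fold. The largest bounds among the genes switched on were those of HSPA1A, MBD3L2, CLIC3, FOXJ1 and ANXA2, from at least 1424-fold for HSPA1A to at least 946-fold for ANXA2. All 15 genes were higher in TR15_MeTA5 as well.

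The bases before the gene's start are shown for HES2, the largest rise, and for GNB4, the largest fall with a window in the RefSeq table (GRCh38.p14), because the fusion protein was designed to bind methylated CpG. The HES2 stretch lies at chr1:6419920-6420169 and the GNB4 stretch at chr3:179451471-179451720, both on the - strand and 250 bases long, and each CG is in capitals.
HES2: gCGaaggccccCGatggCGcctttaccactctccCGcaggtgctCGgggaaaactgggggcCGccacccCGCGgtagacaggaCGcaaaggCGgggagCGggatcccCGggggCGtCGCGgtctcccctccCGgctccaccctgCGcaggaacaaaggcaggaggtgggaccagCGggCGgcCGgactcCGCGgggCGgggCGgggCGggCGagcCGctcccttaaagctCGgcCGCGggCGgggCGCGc
GNB4: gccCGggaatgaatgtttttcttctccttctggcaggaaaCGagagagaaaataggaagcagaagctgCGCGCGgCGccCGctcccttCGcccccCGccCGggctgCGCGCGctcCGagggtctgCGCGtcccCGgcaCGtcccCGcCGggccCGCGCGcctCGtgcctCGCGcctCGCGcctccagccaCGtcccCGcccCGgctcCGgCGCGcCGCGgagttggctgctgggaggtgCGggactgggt
The HES2 stretch holds 33 CG and the GNB4 stretch 37, so that both are rich in CG. Their methylation was not measured on these arrays.

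In TR15_MeTA5 the genes that were lower in TR9_MeTA14 mostly shifted the same way, and few of them passed 2-fold. Of 1955 genes lower in TR9_MeTA14 and measured on all 4 arrays, 1822 (93.2%) had a log2 fold change below 0 in TR15_MeTA5, as had 68.4% of all 12690 genes measured on the 4 arrays. Only 88 of the 1955 (4.50%) were at least 2-fold lower there, beside 1.41% of all 12690. Their median was -1.46 in TR9_MeTA14 and -0.48 in TR15_MeTA5. Because the genes were chosen by their TR9_MeTA14 values, the larger median there follows in part from the choice. The same holds for the medians of the rises below. The rises were shared to a larger extent, since 699 of 1736 genes higher in TR9_MeTA14 (40.3%) were higher in TR15_MeTA5, beside 6.36% of all, with medians of 1.74 and 0.77. Of the 602 genes switched on in TR9_MeTA14, 295 were switched on in TR15_MeTA5 and 156 had no value there. Of the 235 switched off, 10 were switched off there and 127 had no value. No share of all genes switched on or off in TR15_MeTA5 stands beside these counts, so they show no excess or lack.

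Several lists of falling genes had lower medians in TR9_MeTA14 than in TR15_MeTA5, and others did not. The median of the mitosis and spindle genes was -2.54 in TR9_MeTA14 and -0.70 in TR15_MeTA5, and 54 of the 57 genes measured on all 4 arrays had the lower log2 fold change in TR9_MeTA14, beside 6216 of all 12690 genes. For the ATF4 list the medians were -1.94 and -0.52, with 40 of 42 genes lower in TR9_MeTA14. For the cytosolic ribosomal protein genes they were -1.35 and -0.45, with 78 of 79. The TR9_MeTA14 median of these ribosomal genes was -0.61 after quantile normalization and -0.64 after normexp correction. The TR15_MeTA5 median was not calculated under those scalings, so the size of this gap depends on the scaling. For the androgen-responsive genes the medians were -1.27 and -0.60, with 35 of 44. Cholesterol synthesis genes had closer medians (-0.91 and -0.69), and INSIG1 gave -2.02 in TR9_MeTA14 and -1.77 in TR15_MeTA5. The median was not lower in TR9_MeTA14 for glycolysis genes (-0.51 and -0.62), metallothioneins (-0.80 and -0.82) or antioxidant and glutathione genes (-0.39 and -0.40). With 1 array per line and condition, none of these differences between the lines could be tested.

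**Figure D4:**
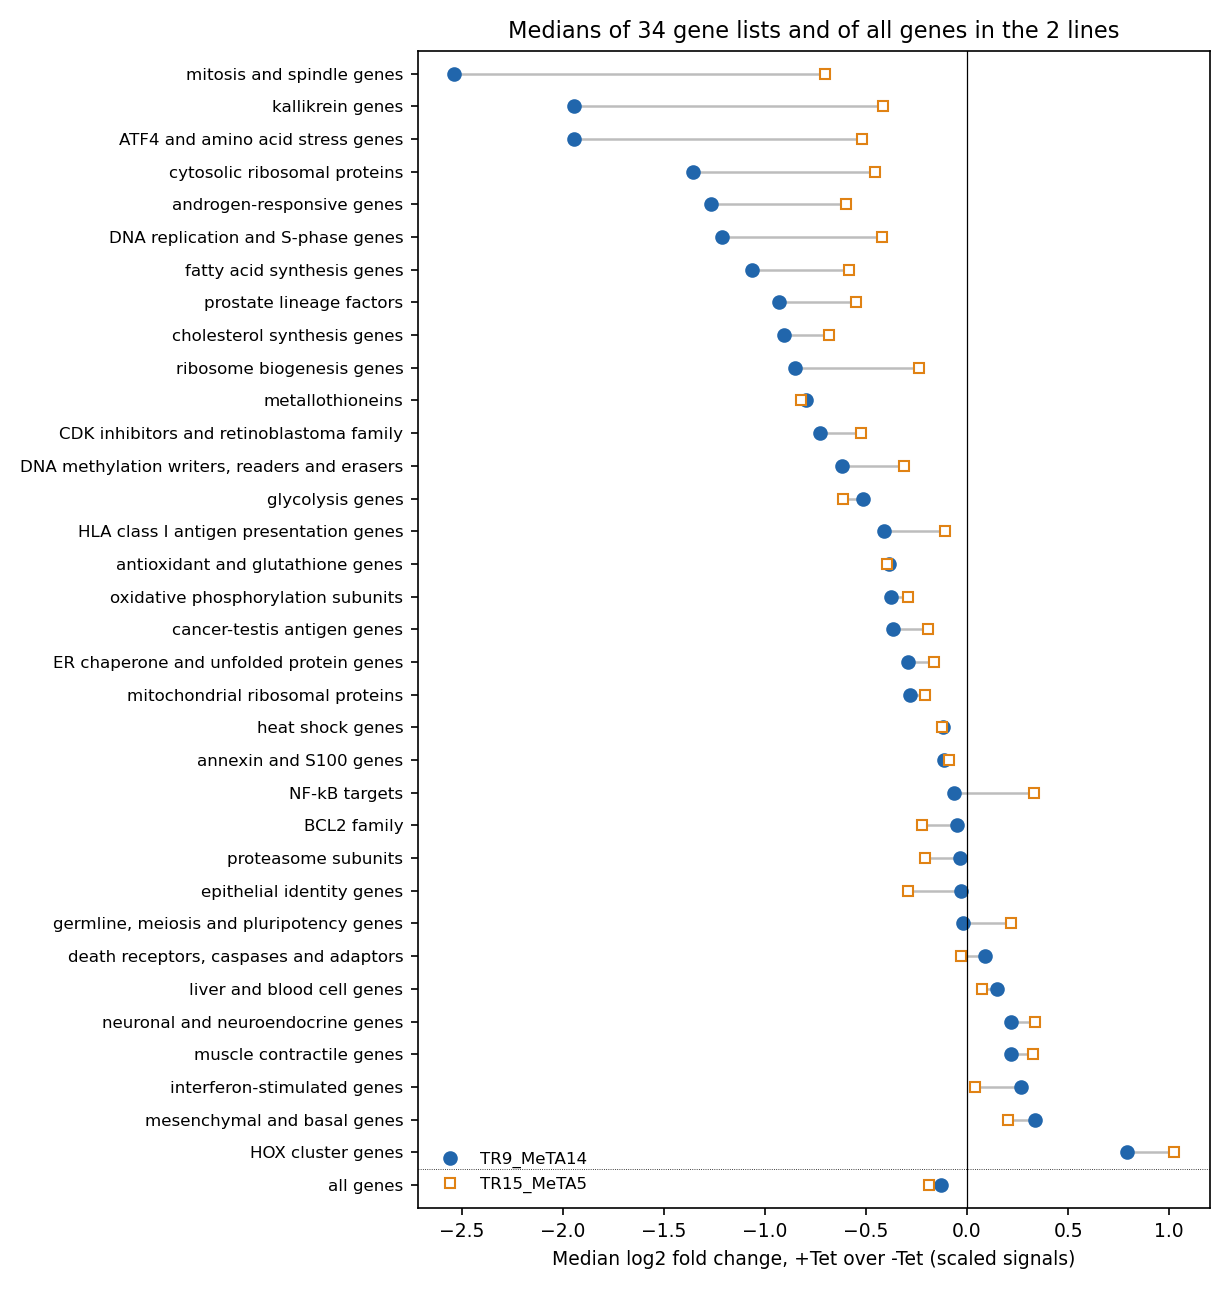
Median log2 fold change (+Tet over -Tet, scaled signals) of 34 gene lists and of all genes, with blue circles for TR9_MeTA14 and open orange squares for TR15_MeTA5, each over the members measured on both arrays of that line. The gap is widest for the mitosis and spindle genes (-2.54 and -0.70), while the medians of all genes nearly coincide (-0.13 and -0.19).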

How the data were processed

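Total RNA of TR9_MeTA14 and TR15_MeTA5 cells was hybridized as Cy3-labeled cRNA to 4 arrays of 1 Agilent 4 × 44K slide, 1 per condition. The authors extracted the images with Agilent Feature Extraction (10.7.3.1 per the file headers, 9.5.1 in the submitters' processing notes) and deposited the intensity of each spot as a background-subtracted processed signal, not normalized between arrays. The paper's methods give a 2-fold cut-off and no normalization. Here outlier spots were left out (344 and 310 on the TR9_MeTA14 arrays), log2 signals of a probe's spots averaged and the 75th percentile over non-control probes subtracted. A fold against an array not well above background is a bound, calculated against the lowest signal that passed the flag there (15.5 and 13.9), or against the probe's signal where that was higher.

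RefSeq accessions paired 25422 probes (74.5%) with 19483 genes of a GRCh38.p14 table, used for names and promoter windows, while the array design was annotated on hg19. The brightest probe stood for a gene. The 34 lists hold 1456 entries, of which 7 were not matched. The genes named are the 10 largest rises and falls, the 5 largest bounds each way, up to 3 members per list and direction, and a fixed set, to which further list members were added after their values were seen. Some genes are not reported here by name. Members and lists were chosen with earlier results of these data known. Counting of CG by class of change is void, since windows were found for between 71.6% and 80.6% of a class, where 80% was required. The fold code was tested on simulated data. Python 3.11.15, pandas 2.3.3, R 4.3.3 and limma 3.58.1 were used.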

Additional observations from a re-analysis of the deposited data

Results flagged for a closer look

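Among 1422 named genes and list members, 3 passed 2-fold in opposite directions in the 2 lines. Of all 12690 genes measured on the 4 arrays, 9 were lower in TR9_MeTA14 and higher in TR15_MeTA5, and 4 the reverse. ACTA2, smooth muscle actin, had a log2 fold change of -1.29 in TR9_MeTA14 (signals of 63.0 in -Tet and 32.4 in +Tet) and of 2.20 in TR15_MeTA5 (56.7 and 386). ADAM7, a member of the ADAM protease family, gave -1.35 in TR9_MeTA14 (761 and 376) and 1.04 in TR15_MeTA5 (106 and 322). DDC, which decarboxylates DOPA, gave 2.34 in TR9_MeTA14 (159 and 1008) and -1.24 in TR15_MeTA5 (448 and 281). Each gene is measured by 1 array per line and condition, and the difference between the lines was not tested.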

How the results depend on the processing

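After normexp background correction with quantile normalization, 2431 probes were higher and 1984 lower (3682 and 3661 as reported), 1353 genes were lower (2274), 270 genes were switched on (602) and 30 switched off (235). With a 3-fold cut-off, 2263 probes and 1625 genes were higher (3682 and 2533 at 2-fold) and 1610 probes and 1006 genes lower. With a 1.5-fold cut-off, 5549 probes were higher, and 6595 probes and 4084 genes lower. MBD2 went from -1.28 to 0.90 and NLRC5 from 1.13 to -0.23 when the probes of a gene were averaged. These averages include a dimmer probe with a bound in the other direction. It was 3.07 for MBD2 (signals of 18.9 in -Tet and 200 in +Tet) and -1.59 for NLRC5 (33.2 and 9.98). Why the probes of each gene differ was not tested. Scaling on 8 spike-in probes moved the median log2 fold change of all genes from -0.13 to 0.01 and with it all 228 single values and list medians. Of these 228, 88 moved by more than the SD from replicate spots under quantile normalization and 180 under normexp. Averaging a gene's probes moved 37 besides the 2 reversed, leaving out the filter on dim signals 11 and keeping all spots 1, while none moved with scaling on the median, with the percentile over spots or, of 216 that had a value, with genes measured on both arrays only. A plain ratio for dim signals moved no count by over 1.5 times. The mitosis list had 50 lower genes of 57 under normexp (54 as reported), the ATF4 list 31 of 42 (33), the androgen-responsive list 24 of 45 (27) and the cytosolic ribosomal list 26 of 79 (62). The deposited series table holds the same processed signals and changed nothing. ACTB, at -0.47, was at 0.32 after quantile normalization and 0.35 after normexp, and GAPDH, at -0.55, was at 0.19 after quantile normalization. No paired analysis was possible because each condition has 1 array, and there was no replicate to leave out. The number of arrays limits the precision, and dim genes give bounds only.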
